A study of Mus musculus with 50 samples.

Results

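The 7 genes described here were followed across 4 lines made from the mouse macrophage line RAW264.7: Crlf2, Bdh1, Btg3, Trp53i11, Jam2, Tmem176a and Tmem176b. They are 7 of the 55416 genes in the deposited tables, were found by symbol, and all 7 were among the 18315 genes left for testing by a filter on low counts, which a gene can pass through the groups where it is high. They were chosen by their levels in these same libraries, by which an earlier analysis set the line lacking both SGK1 and SGK3 apart from the other lines, so their differences between lines are given as a description, with no p-value. For 6 of them the levels bear this out. Jam2 goes against it: the SGK3 knockout was the low line, and the double knockout lay near the control cells.

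Gene expression was measured by poly-A RNA sequencing in 50 libraries. The lines carried an empty sgRNA vector (control cells, labelled WT), an SGK1 knockout, an SGK3 knockout or both knockouts, and each was sampled untreated or after 2 h with 10 µg/mL DMXAA, a compound that activates mouse STING. In batch b1, control cells had 3 libraries untreated, 5 treated with DMXAA and 5 given 500 nM of the SGK inhibitor Sanofi-14h for 2 h ahead of DMXAA, the SGK3 knockout had 3 untreated and 5 treated libraries, and the double knockout 5, all treated. In batch b2, untreated and treated libraries numbered 3 and 4 for control cells, 3 and 4 for the SGK1 knockout, and 3 and 3 for the double knockout. Batch b3 held reruns with DMXAA, 1 of the SGK1 knockout and 2 of the double knockout, and 1 control library whose labels contradict each other. No batch held both single knockouts, and b1 held no double knockout at rest. The labels do not say whether each line was 1 clone, whether replicates were separate cultures, or which cells received the DMSO vehicle, so the p-values take in the spread of these libraries alone, which may be technical.

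SGK1 and SGK3 are serum- and glucocorticoid-regulated kinases that act downstream of PI3K, beside AKT. The 7 genes belong to different processes. Crlf2 encodes the receptor chain that binds the cytokine TSLP and pairs with the IL-7 receptor alpha chain to signal through JAK kinases and STAT5. Bdh1 encodes a mitochondrial enzyme that interconverts the ketone bodies beta-hydroxybutyrate and acetoacetate. Btg3 is a member of the antiproliferative BTG/TOB family, some of whose proteins bind the CCR4-NOT complex that removes poly-A tails. Trp53i11 is named for its induction by p53. Jam2 encodes the junctional adhesion molecule JAM-B, best known from endothelial junctions. Tmem176a and Tmem176b are neighbouring genes for membrane proteins related to the MS4A family and are known from macrophages and dendritic cells.

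Depth ranged from 57859509 to 112007140 counts per library over b1 and b2, and from 76295599 to 86754670 in b3. With DMXAA, Sgk1 lay at 50.5 ± 3.18 CPM (SD, n = 5) in control cells of b1 and 35.1 ± 6.52 (n = 4) in b2, against 4.78 ± 1.11 (n = 5) and 2.46 ± 0.678 (n = 3) in the double knockout, 4.25 ± 2.33 (n = 4) in the SGK1 knockout and 21.6 ± 2.22 (n = 5) in the SGK3 knockout. CPM is each gene's count scaled to the library size. Sgk3 had group means of 89.1 to 129 CPM in b1 and b2. It was at 89.1 ± 1.28 CPM (n = 3) in the resting SGK3 knockout, just below the 94.3 ± 0.635 (n = 3) of control cells without overlap, and in the other comparisons its knockouts overlapped control cells or lay above them; whole-gene counts do not show whether its coding sequence was edited. Tnf and the interferon-stimulated gene Rsad2 stood at 335 ± 52.7 and 42.5 ± 9.50 CPM (n = 5) in the double knockout of b1, against 34.2 ± 7.96 and 0.0681 ± 0.118 CPM (n = 3) in that line at rest in b2, and Ifnb1, which had no count at rest in any group, at 2.54 ± 0.663 CPM (n = 5). The summed level of 14 macrophage markers was 8809 to 15160 CPM over the libraries of b1 and b2, and 2 of the 14 were below 1 CPM in every library. In b2 this sum was 12410 to 15160 CPM in control cells. It was lower without overlap in the double knockout, at 8809 to 11110, and in the SGK1 knockout, at 8898 to 11730. In b1 the ranges of the lines overlapped. Markers of other cell types summed to at most 24.7 CPM for B cells, 5.69 for dendritic cells, 4.89 for T or NK cells and 1.78, 1.26 and 0.349 for fibroblasts, endothelium and epithelium, with Ms4a1, Flt3, Ccr7, Cd209a, Cd3g, Lum, Cdh1 and Erg at 0 throughout. The B cell sum was 6.25 to 11.3 CPM in the double knockout and 4.36 to 7.09 in the SGK1 knockout, against 12.3 to 24.2 in control cells and 19.4 to 24.7 in the SGK3 knockout. Of the 8 B cell markers, 6 were below 1 CPM in every library, so this sum rests on few genes. The part of these markers in the results was not tested. An earlier analysis of these files listed 6 libraries of b2 whose levels rose with transcript length (4 of the SGK1 knockout and 2 of the double knockout), and values without them follow the DMXAA responses. The 5 double knockout libraries of b1 lack, in their names, the letter that marks DMXAA alone in the other libraries of that batch, and are taken as treated from their titles and treatment field. In bulk RNA, fewer cells that express a gene and less RNA per cell cannot be told apart.

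On GRCm39, the build of the deposited tables, Crlf2 spans chromosome 5, 109702575 to 109706859, on the minus strand. Trp53i11 spans chromosome 2, 93017893 to 93032104, on the plus strand. Chromosome 16 holds Bdh1 at 31241098 to 31277719 (plus), Btg3 at 78129525 to 78174080 (minus) and Jam2 at 84571011 to 84622816 (plus). Tmem176b (48810752 to 48818430, minus) and Tmem176a (48817853 to 48824005, plus) lie head to head on chromosome 6 and overlap by 578 bases, so reads in the overlap cannot be assigned without strand information. Btg3 overlaps 27138 bases of Cxadr on the opposite strand, which had at most 12 counts in any library.

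RefSeq start-site windows (GRCm38.p6) were at hand for 6 of the 7 genes. Those of Crlf2, Bdh1, Btg3 and Trp53i11 were taken up. Trp53i11 was then left out, because too few bases of its window lay before the outermost annotated start. The other 3, the members with the lowest counts in the double knockout, are shown, cut to the bases before that start. Capitals mark matches on either strand to any of 5 short motifs, namely the GC box GGGCGG, the CCAAT box, the TATA box TATAAA, the PU.1 site GAGGAAGT and the FOXO site GTAAACA.
Crlf2, minus strand, chr5:109559129-109559243: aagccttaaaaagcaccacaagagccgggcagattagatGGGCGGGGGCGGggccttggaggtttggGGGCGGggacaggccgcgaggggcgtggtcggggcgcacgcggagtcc
Bdh1, plus strand, chr16:31422047-31422296: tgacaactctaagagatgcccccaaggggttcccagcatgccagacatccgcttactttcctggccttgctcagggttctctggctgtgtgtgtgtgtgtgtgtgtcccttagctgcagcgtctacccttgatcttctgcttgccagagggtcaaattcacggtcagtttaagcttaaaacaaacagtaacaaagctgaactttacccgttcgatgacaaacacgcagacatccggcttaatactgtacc
Btg3, minus strand, chr16:78377182-78377431: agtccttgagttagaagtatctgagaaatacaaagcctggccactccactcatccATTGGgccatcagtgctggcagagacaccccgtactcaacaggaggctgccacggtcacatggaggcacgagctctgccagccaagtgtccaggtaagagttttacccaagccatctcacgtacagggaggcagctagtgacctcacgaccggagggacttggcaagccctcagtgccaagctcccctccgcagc
The 115 bases shown for Crlf2 are 69.6% G and C and hold 3 GC boxes, 2 of them adjacent. A GC box is in 12.2% of the 32851 start-site windows cut to their outer 115 bases, the part farthest from the start. It is in 32.7% of the windows over the full 250 bases. The bases shown for Crlf2 lie directly before its outermost start, so the 12.2% is not for a like stretch. The 250 bases of Bdh1 are 49.6% G and C and hold none of the 5 motifs. Those of Btg3 are 57.2% G and C and hold 1 CCAAT on the opposite strand, a match found in 33.8% of windows of that length. No motif was in more than 1 of the 3 sequences.

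Crlf2, the TSLP receptor chain, had no count in any of the 11 double knockout libraries of b1 and b2 or in the 2 of b3. A floor of 12 counts, taken as 3 read pairs, allows up to 0.164 CPM per library on average in b1 and 0.166 with DMXAA in b2, for counting error only. The 13 control libraries of b1 ranged from 4.58 to 7.22 CPM with a median of 6.06, and the 8 SGK3 knockout libraries from 5.85 to 8.81 with a median of 7.42. In b2 the 7 control libraries ranged from 17.8 to 25.1 CPM with a median of 20.98. The 7 SGK1 knockout libraries ranged from 0.650 to 2.99 CPM with a median of 1.78. The double knockout was thus at 0 in both batches, the SGK1 knockout lay below all control libraries of its batch, and the SGK3 knockout overlapped the control cells of its own with DMXAA. At rest the SGK3 knockout lay above control cells without overlap, at a mean of 8.32 against 6.47 CPM (log2 difference 0.36 ± 0.35). With DMXAA, Crlf2 was at least 36.4-fold lower in the double knockout than in control cells in b1 and at least 120-fold lower in b2, and at least 42.5-fold and 10.98-fold lower than in the SGK3 and SGK1 knockouts. The SGK1 knockout differed from control cells with DMXAA by -3.45 ± 0.34 (log2 ± SE). Its treated libraries held 2.95, 0.699, 2.99 and 0.650 CPM, and the 2 low ones are among the 6 libraries with a length trend.

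**Figure D1:**
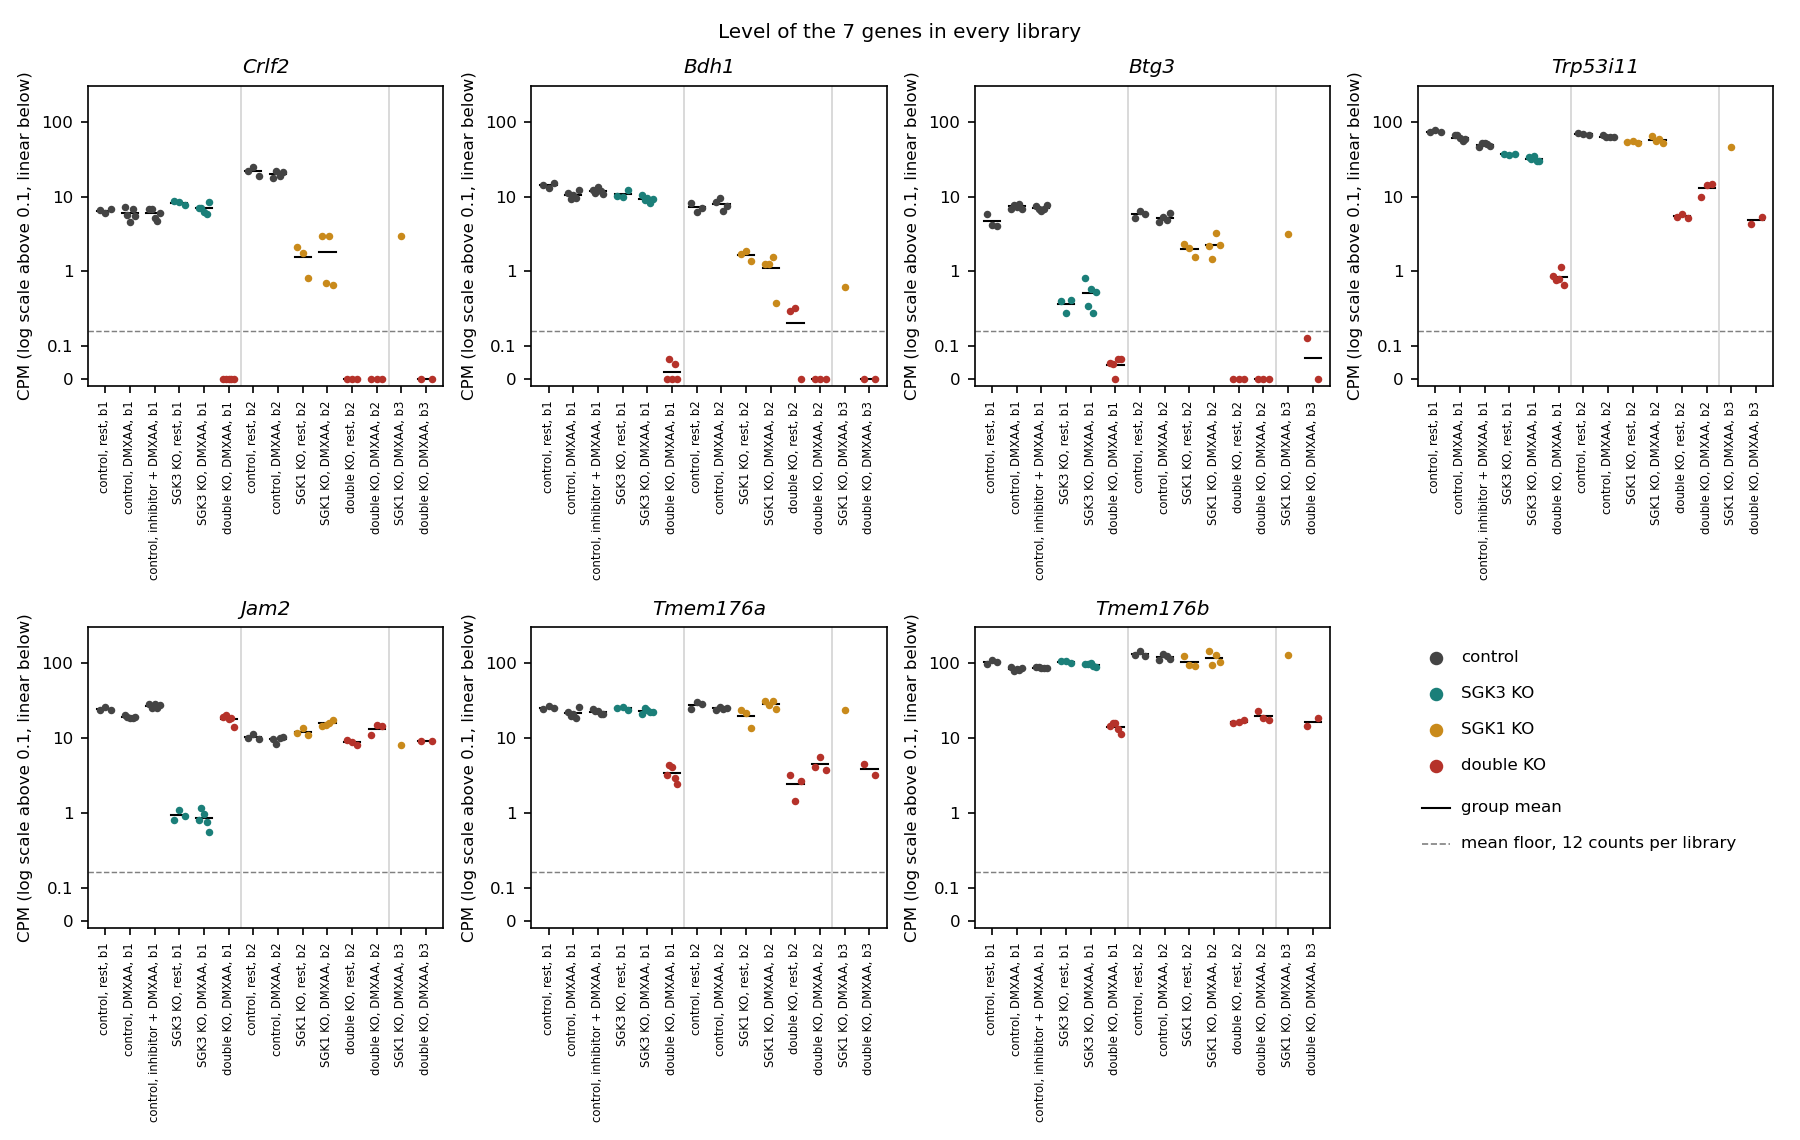
CPM of the 7 genes in each library, by line, treatment and batch (log scale above 0.1 CPM, linear below); points are libraries, black lines group means and dashed lines the mean level of 12 counts. Crlf2 is at 0 in all double knockout libraries, while Jam2 is lowest in the SGK3 knockout.

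Bdh1, the ketone body enzyme, was also lowest in the double knockout. In the double knockout with DMXAA, the 5 libraries of b1 held 0, 4, 0, 3 and 0 counts, the 3 of b2 none and the 2 of b3 none, all below the floor of 12. At rest in b2 the 3 libraries held 28, 25 and 0 counts, or 0.297, 0.322 and 0 CPM. Control cells had 9.37 to 15 CPM in b1 (median 11.8, n = 13) and 6.24 to 9.53 in b2 (median 7.56, n = 7). The SGK3 knockout had 8.18 to 12.1 CPM (median 9.61, n = 8), and the SGK1 knockout 0.381 to 1.85 (median 1.40, n = 7). The SGK1 knockout was therefore intermediate in b2, at -2.86 ± 0.33 (log2 ± SE) relative to control cells with DMXAA, while the SGK3 knockout overlapped the control cells with DMXAA. At rest, where the SGK3 knockout lay above control cells for Crlf2, it lay below them for Bdh1 without overlap, at a mean of 10.7 against 14.1 CPM (log2 difference -0.40 ± 0.35). With DMXAA in b2, the double knockout was at least 48.3-fold below control cells and at least 6.68-fold below the SGK1 knockout.

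Btg3, the antiproliferative BTG/TOB protein gene, differed in that both single knockouts were low as well. The double knockout held 5, 3, 0, 4 and 5 counts in b1, none in the 6 libraries of b2, and 11 and 0 in b3, each below the floor. The SGK3 knockout had 0.277 to 0.817 CPM (median 0.404, n = 8) where control cells of b1 had 3.997 to 8.04 (median 6.90, n = 13). The SGK1 knockout had 1.47 to 3.22 CPM (median 2.17, n = 7) where control cells of b2 had 4.55 to 6.33 (median 5.31, n = 7). No range overlapped another within a batch. With DMXAA the log2 difference from control cells was -3.84 ± 0.26 (SE) for the SGK3 knockout in b1 and -1.19 ± 0.26 for the SGK1 knockout in b2. In b2 the double knockout was at least 31.3-fold below control cells and at least 13.71-fold below the SGK1 knockout.

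Trp53i11, the p53-induced gene, was low but measurable in the double knockout, and its level there differed between batches more than that of the other members with a measurable level there. With DMXAA, the 5 libraries of b1 held 0.854, 0.765, 0.793, 1.16 and 0.659 CPM, and the 3 of b2 held 9.88, 14.3 and 14.7 CPM. At rest in b2 they held 5.34, 5.82 and 5.16 CPM, and the 2 libraries of b3, with DMXAA, 4.29 and 5.39. The double knockout of b2 was 15.4-fold above that of b1 with DMXAA, a log2 difference of 3.94 ± 0.11. Control cells with DMXAA, by contrast, had 61.3 ± 5.03 CPM (SD, n = 5) in b1 and 63.3 ± 2.15 (n = 4) in b2. The double knockout was 72.7-fold below control cells with DMXAA in b1, 4.88-fold below in b2 and 12.5-fold below at rest. The SGK3 knockout also lay below control cells, with 32.1 ± 2.05 CPM (n = 5) and a log2 difference of -0.93 ± 0.08. The SGK1 knockout had 57.4 ± 4.79 CPM (n = 4) with DMXAA, overlapping the control cells, and 53.8 ± 1.5 (n = 3) at rest, where it did not overlap their 68.2 ± 2.13 (n = 3).

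Tmem176a and Tmem176b were low together in the double knockout, in both batches, and kept a measurable level. For Tmem176a, the double knockout with DMXAA held 3.21, 4.30, 4.06, 2.96 and 2.46 CPM in b1, 4.05, 5.58 and 3.71 in b2, and 4.55 and 3.22 in b3, and at rest 3.25, 1.44 and 2.63. All control and single knockout libraries of b1 and b2 lay between 13.6 and 31.5 CPM. For Tmem176b, the double knockout held 14.6, 15.7, 15.7, 13.04 and 11.3 CPM in b1, 22.7, 18.8 and 17.6 with DMXAA in b2, and 14.3 and 18.8 in b3, and at rest 15.7, 16.5 and 17.5. The other lines of b1 and b2 lay between 77.9 and 145 CPM. With DMXAA, the double knockout was below control cells by 6.35-fold for Tmem176a and 5.98-fold for Tmem176b in b1, and by 5.6-fold and 6.17-fold in b2. At rest the difference was 11.4-fold and 8.03-fold. Against the single knockouts with DMXAA, it was 6.75-fold and 6.73-fold (SGK3) and 6.44-fold and 6.001-fold (SGK1). The single knockouts lay near control cells with DMXAA, with log2 differences of 0.09 ± 0.14 and 0.17 ± 0.09 for the SGK3 and 0.20 ± 0.16 and -0.04 ± 0.10 for the SGK1 knockout. At rest the SGK1 knockout lay below control cells without overlap, with log2 differences of -0.52 ± 0.18 and -0.37 ± 0.11. On the per-length TPM scale, Tmem176b stood at 4.67 ± 0.568 times Tmem176a (SD, n = 5) in the double knockout of b1 and at 4.73 ± 0.742 (n = 5) in treated control cells. The ratio had group means of 4.67 to 6.58 in b1 and b2 but for the double knockout at rest, where it was 9.30 ± 4.30 (n = 3) and ranged from 5.57 to 14.

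Jam2, the adhesion molecule JAM-B, was low in the SGK3 knockout alone. The SGK3 knockout had 0.795, 1.09 and 0.919 CPM at rest and 0.806, 1.17, 0.955, 0.758 and 0.560 with DMXAA. Control cells of b1 had 18.6 to 28.3 CPM (median 23.9, n = 13), and the double knockout 19.1, 20.5, 17.9, 18.3 and 14.01. With DMXAA the SGK3 knockout was 22.7-fold below control cells and 21.2-fold below the double knockout, although both lines are labelled as lacking SGK3. The double knockout overlapped treated control cells in b1, with a log2 difference of -0.10 ± 0.11 and a 95% interval of -0.31 to 0.12. In b2 it held 11.1, 14.7 and 14.4 CPM with DMXAA, above the 9.73, 8.39, 10.0 and 10.3 of control cells by 0.48 ± 0.13 (log2 ± SE). At rest in b2 it held 9.41, 8.92 and 8.18 CPM, just below the 9.89, 11.3 and 9.56 of control cells. The SGK1 knockout had 14.6, 15.1, 16.1 and 17.3 CPM with DMXAA, above control cells by 0.71 ± 0.12. Jam2 thus differs from the other 6 members in which line is low.

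**Figure D2:**
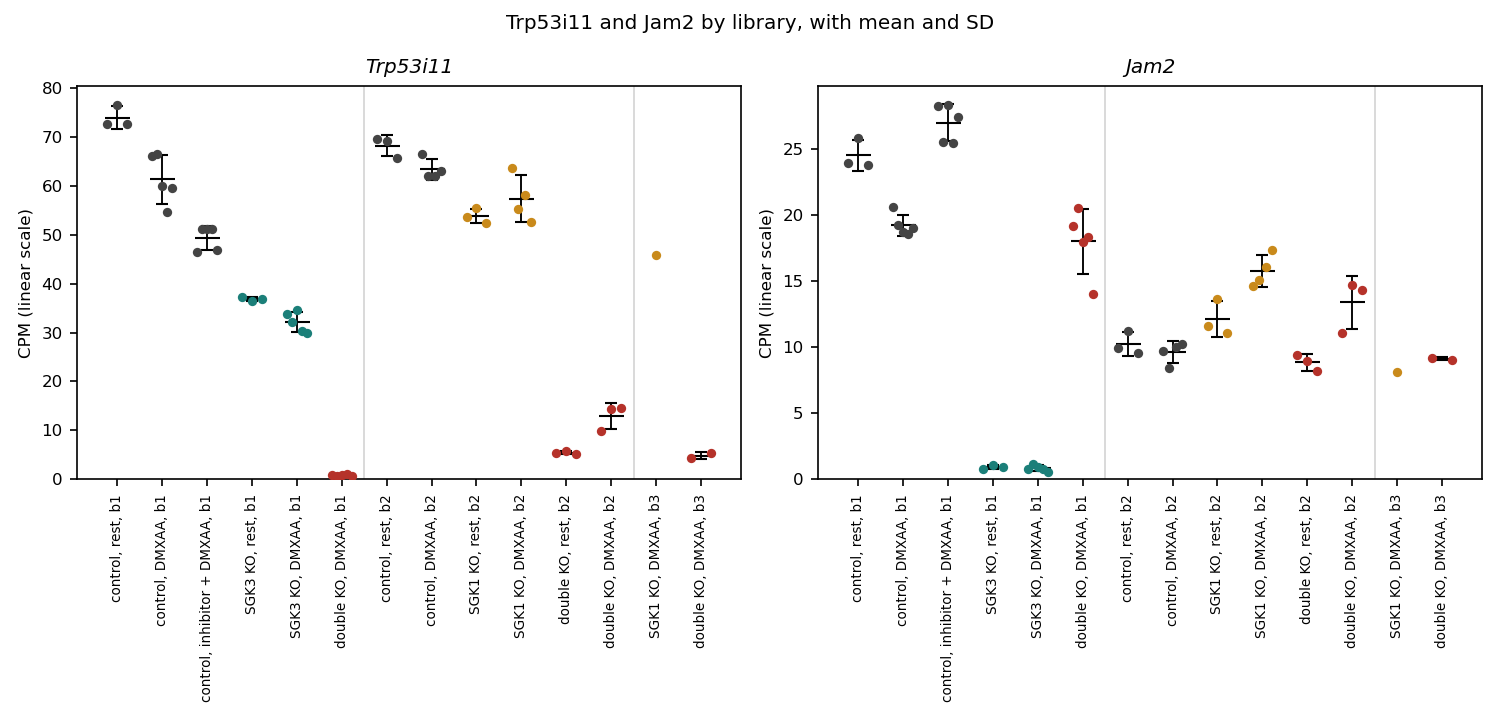
CPM of Trp53i11 (left) and Jam2 (right) in each library on a linear scale starting at 0, by line, treatment and batch, with mean and SD where a group has more than 1 library. Trp53i11 in the treated double knockout lies near 1 CPM in b1 and between 9.88 and 14.7 in b2, and Jam2 lies near 1 CPM in the SGK3 knockout and in no other group.

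In each of b1 and b2, 6 of the 7 members had every double knockout library below every other library of the batch, and Jam2 did not. Over all genes tested, 0.732% did so in b1 (5 libraries against 21) and 0.437% in b2 (6 against 14). Since the members were picked for this difference, nothing is read from that contrast. Over the 46 libraries of b1 and b2, with log2 CPM centred on the batch mean, the same 6 members correlated with each other at Pearson r of 0.831 to 0.981, with Tmem176a and Tmem176b at the upper end. Jam2 correlated with them at -0.213 to 0.273. These libraries share lines and batches, so the coefficients describe the line differences above and carry no test. By group mean, Crlf2 was highest in control cells of b2, and Bdh1 highest in resting control cells of b1, with neighbours in the order overlapping by range from rank 1 to rank 7. Trp53i11 had 12 group means from 73.9 CPM in resting control cells of b1 to 0.846 in the treated double knockout of b1, and the 3 lowest, all of the double knockout, did not overlap in range.

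The rule that picked the members compared lines, not treated with resting cells of a line. It did use the levels of these same libraries. DMXAA responses within a line were tested over all genes with edgeR's quasi-likelihood test and Benjamini-Hochberg adjustment. In control cells of b1, 3 members fell, with log2 changes of -0.27 ± 0.09 for Trp53i11 (adjusted p = 0.026), -0.35 ± 0.12 for Jam2 (adjusted p = 0.0325) and -0.31 ± 0.10 for Tmem176b (adjusted p = 0.0213). There, 21.1% of all tested genes passed, 10.3% as lower, and groups did not overlap for 15.9% as lower and 16.6% as higher. The Tmem176b values were 96.4, 112 and 105 CPM at rest and 90.1, 77.9, 84.8, 80.1 and 87.3 with DMXAA, without overlap. Each of these calls depends on single libraries: without resting replicate 2 none of the 3 passed (edgeR, adjusted p of 0.1002, 0.135 and 0.126), and without treated replicate 3, 4 or 5 or resting replicate 3 only 1 of the 3 passed. Without treated replicate 2, Tmem176b did not pass (edgeR, adjusted p = 0.0535) and Jam2 stood at the threshold. Without resting replicate 1, Jam2 did not pass (edgeR, adjusted p = 0.0574). Btg3 was higher with DMXAA in all 5 libraries than in any of the 3 at rest, with 7.38 ± 0.522 against 4.64 ± 1.00 CPM, but did not pass (log2 difference 0.67 ± 0.27, adjusted p = 0.0703; 0.00556 by DESeq2). Bdh1 was at 10.6 ± 1.245 CPM with DMXAA and 14.1 ± 0.949 at rest, also without overlap, and did not pass (adjusted p = 0.442). In a fit of the compared groups alone, Bdh1 and Btg3 both passed (edgeR, adjusted p of 0.00626 and 0.001655). They also passed in a fit of the b1 libraries alone (edgeR, adjusted p of 0.0259 and 0.01845). Neither gene passed under every alternative. In control cells of b2 no member passed, where 7.80% of genes did; the smallest unadjusted p of the 7 was 0.226, and log2 differences ran from -0.17 to 0.16. In the SGK3 knockout none passed either, where 16.5% of genes did; Trp53i11 alone had an unadjusted p under 0.05, with a log2 difference of -0.20 ± 0.09 (edgeR, adjusted p = 0.157).

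In the SGK1 knockout, 2 members rose with DMXAA, where 24.1% of genes passed and 12.5% as higher. Jam2 rose by 0.38 ± 0.13 on the log2 scale (edgeR, adjusted p = 0.0285), from 11.6, 13.6 and 11.1 CPM at rest. Tmem176a rose by 0.56 ± 0.17 (edgeR, adjusted p = 0.0139), from 23.3, 21.5 and 13.6 CPM to 31.5, 27.3, 31.5 and 24.2. The ranges at rest and with DMXAA did not overlap for either gene, as for 7.69% of genes that were higher. Without the lowest resting library for both genes, F, neither passed (log2 differences 0.33 and 0.36; edgeR, adjusted p of 0.132 and 0.168), nor without the 6 libraries with a length trend, which leaves 1 library at rest (0.40 and 0.43; adjusted p of 0.242 and 0.170). Jam2 alone was also lost without D, Q or R (edgeR, adjusted p of 0.0678, 0.0513 and 0.071).

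In the double knockout of b2, 3 members with measurable levels rose with DMXAA, where 14% of genes passed, 7.44% as higher and 6.51% as lower. Groups did not overlap for any of the 3, as for 9.12% of genes that were higher. Trp53i11 rose by 1.26 ± 0.11 on the log2 scale (edgeR, adjusted p = 3.88e-12), or 2.39-fold, from 5.34, 5.82 and 5.16 to 9.88, 14.3 and 14.7 CPM. Jam2 rose by 0.60 ± 0.14 (edgeR, adjusted p = 0.0018) and Tmem176a by 0.86 ± 0.20 (edgeR, adjusted p = 0.00143). The levels of these double knockout libraries chose the members, so these p-values are not independent of that choice. The treated double knockout of b3 lay lower than that of b2 for Trp53i11, at 4.29 and 5.39 CPM, and for Jam2, at 9.18 and 9.05, within or below the range of the untreated libraries of b2 for both. For Tmem176a the b3 libraries held 4.55 and 3.22 CPM. In b2 its range was 1.44 to 3.25 at rest and 3.71 to 5.58 with DMXAA. Batch b3 holds no double knockout at rest. Tmem176b was 0.25 ± 0.12 higher and did not pass (edgeR, adjusted p = 0.157), though it passed without the 6 libraries with a length trend. Bdh1 had 28, 25 and 0 counts at rest against none with DMXAA; it was tested only because other lines express it, and no call is drawn from these counts. Crlf2 and Btg3 had no count in either group.

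Without the 6 libraries with a length trend, the responses of the double knockout were 1.22 for Trp53i11 (edgeR, adjusted p = 4.07e-10), 0.56 for Jam2 (adjusted p = 0.01655), 0.72 for Tmem176a (adjusted p = 0.00297) and 0.33 for Tmem176b (adjusted p = 0.0392), on the log2 scale and with 2 libraries in each group. The double knockout then differed from control cells with DMXAA in b2 by -2.38 for Trp53i11, 0.43 for Jam2, -2.36 for Tmem176a and -2.55 for Tmem176b, and at rest by -3.70, -0.22, -3.25 and -3.01. The SGK1 knockout differed from control cells with DMXAA by -2.74 for Crlf2, -2.51 for Bdh1, -0.94 for Btg3 and 0.68 for Jam2, so Crlf2 was closer to control cells than the -3.45 with all libraries. At rest, with 1 SGK1 knockout library left, Tmem176a and Tmem176b differed by -0.26 and -0.10, against -0.52 and -0.37 with all. Btg3 in control cells of b1, a response that holds none of these libraries, passed in the same fit (log2 change 0.67, edgeR, adjusted p = 0.0241).

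The differences between responses of lines were tested for both single knockouts. No member passed for the SGK3 knockout against control cells in b1 (0.191% of genes passed; 0 members had an unadjusted p under 0.05 by edgeR) or for the SGK1 knockout against control cells in b2 (2.83% passed). In the latter, Jam2, Tmem176a and Tmem176b had unadjusted p under 0.05 by edgeR, with differences of 0.47 ± 0.18, 0.72 ± 0.24 and 0.33 ± 0.15 on the log2 scale and adjusted p of 0.15, 0.0839 and 0.236. The response of control cells in b2 minus that in b1 passed for no member (3.21% of genes passed), and Btg3 alone had an unadjusted p under 0.05 by edgeR (difference -0.82 ± 0.38, adjusted p = 0.322). For the double knockout, whose levels chose the members, the response minus that of control cells in b2 is given without a test: it was 1.36 ± 0.14 for Trp53i11, 1.03 ± 0.26 for Tmem176a, 0.69 ± 0.19 for Jam2 and 0.38 ± 0.16 for Tmem176b (log2 ± SE).

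Sanofi-14h before DMXAA moved 2 members in control cells of b1 relative to DMXAA alone, where 8.51% of genes passed, 3.70% as higher and 4.81% as lower. Trp53i11 fell by 0.31 ± 0.08 on the log2 scale (edgeR, adjusted p = 0.00658), from 66.2, 66.5, 60.0, 54.6 and 59.5 CPM to 46.5, 51.2, 51.2, 51.1 and 46.8. Jam2 rose by 0.49 ± 0.11 (edgeR, adjusted p = 0.00141), from 20.6, 19.2, 18.7, 18.6 and 19.03 CPM to 28.2, 25.5, 28.3, 25.5 and 27.4. The groups did not overlap for either gene, as for 6.31% of genes that were lower and 5.73% that were higher. Both calls held without any single library of either group. The inhibitor comparison and the DMXAA response of b1 share the libraries with DMXAA alone, so their values are not independent. Crlf2, Bdh1, Btg3, Tmem176a and Tmem176b did not pass, with log2 differences from -0.07 to 0.17, and for Crlf2 a 95% interval of -0.57 to 0.55. The inhibitor was given for hours and the knockouts are permanent, so the values stand side by side without a test: with DMXAA in b1, Crlf2 was at 5.94 ± 0.966 CPM (SD, n = 5) with the inhibitor, 5.98 ± 1.07 (n = 5) without it and 0 in the double knockout.

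**Figure D3:**
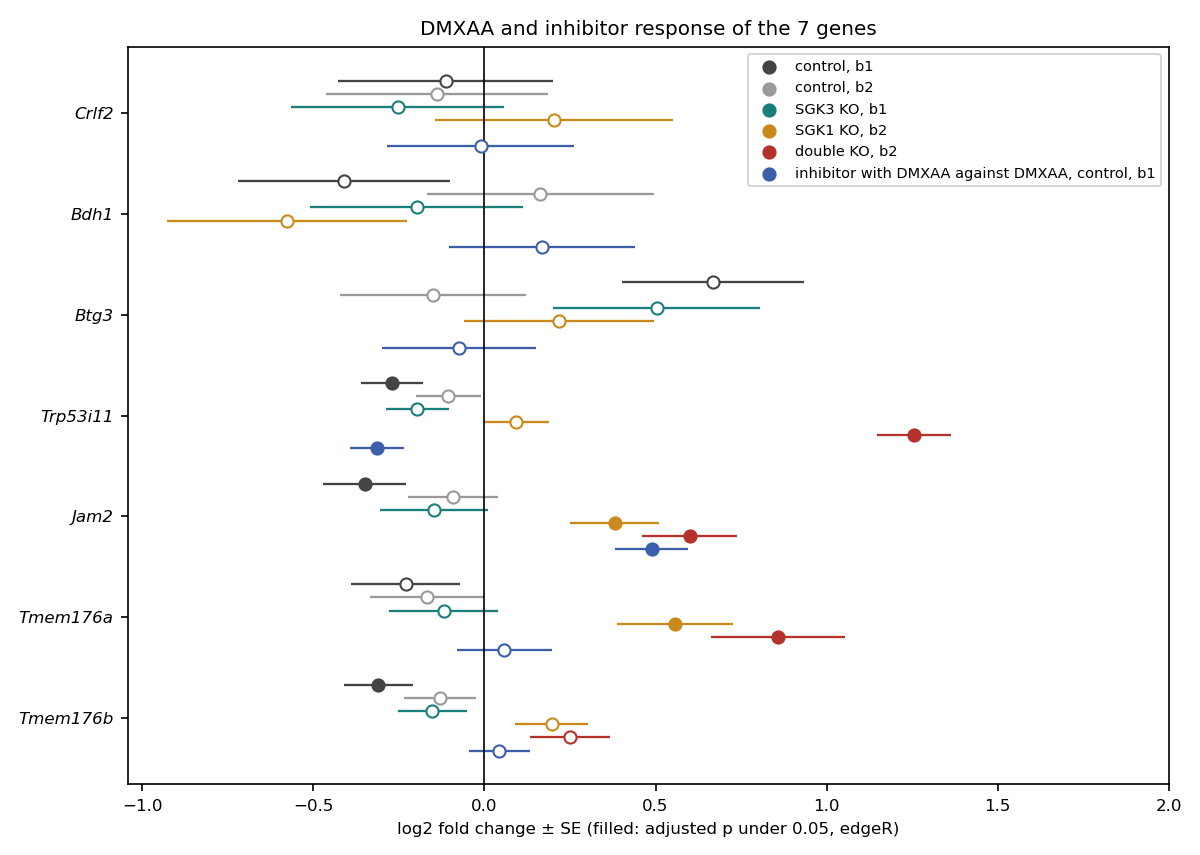
Log2 fold change with its SE for each member on DMXAA within each line and batch, and for the inhibitor with DMXAA against DMXAA in control cells; filled points have an adjusted p under 0.05 by edgeR. Trp53i11 in the double knockout of b2 lies farthest from 0, at 1.26. Crlf2, Bdh1 and Btg3 have no point for the double knockout, where at least 1 group had no count.

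Levels of the members also differed between batches within a line. In treated control cells, Crlf2 was 3.32-fold higher in b2 than in b1 and Jam2 2.00-fold lower, while Trp53i11 differed by 0.05 ± 0.08 (log2 ± SE). These are differences between batches of cells with the same label and carry no test here.

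Genes that work with the members were counted from lists written with earlier results of these data known, in the double knockout against control cells with DMXAA, where 13.4% of all genes passed in b1 and 21.6% in b2 (7.15% and 10.0% as higher, 6.21% and 11.6% as lower). Of 20 measured genes of TSLP and IL-7 receptor signalling, 1 was higher, 5 were lower and 14 did not pass in b1, and 6 were higher and 4 lower in b2, with median log2 differences of -0.12 and -0.01 beside -0.01 and -0.03 over all genes. The kinase gene Jak3 was lower, with log2 differences of -0.76 ± 0.16 in b1 and -0.99 ± 0.20 in b2. Pim1, a kinase gene that STAT5 induces, was lower in both batches (-0.36 ± 0.08 and -0.29 ± 0.10). Stat6, used by IL-4 signals, was higher by 0.24 ± 0.04 and 0.37 ± 0.05. The partner chain Il7r had 0.104 and 0.137 CPM in treated control cells of b1 and b2, under the level of 12 counts in a library, and Tslp 0.0614 and 0.0513.

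Among 18 measured genes of ketone body metabolism and its neighbouring routes, 3 were higher and 2 lower in b1, and 5 higher and 3 lower in b2 (median log2 differences 0.07 and 0.04). Oxct1, which activates acetoacetate for use, was higher by 0.25 ± 0.05 and 0.68 ± 0.06, and Hmgcs1, the cytosolic HMG-CoA synthase, by 0.41 ± 0.07 and 0.81 ± 0.08. The transporters of lactate and ketone bodies Slc16a3 and Slc16a1 were lower, with log2 differences of -0.60 ± 0.08 and -0.69 ± 0.10 for the first and -0.33 ± 0.05 and -0.49 ± 0.07 for the second. Of 19 BTG/TOB and deadenylase genes, 1 was higher and 3 were lower in b1, and 2 and 3 in b2 (medians 0.00 and 0.05), and none moved the same way past the threshold in both batches. Of 30 p53 target genes, 4 were higher and 3 lower in b1, and 5 and 2 in b2 (medians -0.04 and -0.08). Cdkn1a, the cell cycle inhibitor p21, was lower (-0.25 ± 0.08 and -0.60 ± 0.10), as was Pmaip1, an apoptosis gene (-0.34 ± 0.07 and -0.43 ± 0.09). Eda2r, a receptor of the TNF receptor family, was higher by 4.61 ± 1.17 and 3.83 ± 1.29, from 0.0806 and 0.109 CPM in control cells to 2.01 and 1.58.

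Of 20 measured junctional adhesion molecules and partners, 2 were higher and 4 lower in b1, and 2 and 3 in b2 (medians -0.03 and 0.03). Itgal, the alpha chain of the integrin LFA-1, was lower (-2.40 ± 0.28 and -1.94 ± 0.31), as was Cd47, the ligand of SIRP-alpha (-0.22 ± 0.06 and -0.26 ± 0.07). Only 5 of 18 MS4A family and related genes passed the filter on low counts. Among these, 1 was lower in b1 and 3 in b2, and none was higher (medians -0.56 and -1.02). Ms4a6c was at 23.7 and 22.9 CPM in control and double knockout cells in b1 and at 18.5 and 9.11 in b2, and was lower in b2 alone (log2 difference -1.02, edgeR, adjusted p = 7.92e-08). Of 14 measured genes of MHC class II presentation and dendritic cells, 1 was higher and 3 lower in b1, and 2 and 2 in b2 (medians -0.34 and -0.49). Cd74, the invariant chain, was lower (-0.51 ± 0.12 and -0.55 ± 0.14), as was H2-DMa, which loads class II peptides (-1.15 ± 0.39 and -1.77 ± 0.50). Cd83, a surface protein of activated antigen-presenting cells, was higher by 0.72 ± 0.08 and 1.24 ± 0.10. All genes named from these lists passed the threshold of 0.05 in both batches by edgeR except Il7r, Tslp and Ms4a6c.

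The same lists held called genes in the single knockouts as well. Against control cells with DMXAA, where 10.8% of genes passed in the SGK3 knockout and 20.8% in the SGK1 knockout, the ketone body list gave the same counts in the single knockouts, with 3 higher and 2 lower (SGK3) and 5 and 3 (SGK1). The TSLP and IL-7 list gave 0 higher and 3 lower in the SGK3 and 6 and 3 in the SGK1 knockout, the p53 targets 3 and 1, and 1 and 3, and the junction genes 4 and 2, and 3 and 3. In the double knockout against the SGK3 knockout, where 2.16% of genes passed, 0 of 20 TSLP and IL-7 genes, 1 of 18 ketone body genes, 1 of 30 p53 targets, 2 of 20 junction genes and 0 of 14 class II genes passed. Against the SGK1 knockout, where 6.63% of genes passed, the numbers were 2, 4, 3, 5 and 0. Against control cells, the MS4A list gave 0 higher and 1 lower (SGK3) and 2 and 1 (SGK1). The BTG/TOB list gave the same counts, and the class II list 1 and 0 (SGK3) and 2 and 1 (SGK1). The double knockout differed from the SGK3 knockout in 0 of 5 MS4A and 1 of 19 BTG/TOB genes. From the SGK1 knockout it differed in 2 of 5, both lower, and 1 of 19.

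Most genes near the members on the chromosome did not pass. Within 0.5 Mb of a start, 6 of 7 measured neighbours of Crlf2 did not pass in any of the 3 comparisons of double knockout and control cells (6.26% of all genes passed at rest). The exception was 5430403G16Rik, the nearest measured gene, lower with log2 differences of -2.42 ± 0.63 with DMXAA in b1, -2.78 ± 0.81 in b2 and -3.06 ± 0.82 at rest, at 1.16 and 1.28 CPM in treated control cells. For Bdh1, none of 9 neighbours passed with DMXAA in b1 or at rest, and 4 passed with DMXAA in b2. Xxylt1 (-0.26 ± 0.09), Ppp1r2 (-0.17 ± 0.06) and Apod, on 0.463 CPM in control cells against 0, were lower there, and Gm49767 was higher (0.98 ± 0.36). Dlg1, the nearest gene on the other side, did not pass in any comparison. D16Ertd472e, the single measured neighbour of Btg3, was at 12.9 and 13.9 CPM in control and double knockout cells in b1 and higher by 0.38 ± 0.11 in b2. Cd82 near Trp53i11 was higher by 0.24 ± 0.08 in b1 and did not pass in b2. Beside Jam2, Mrpl39 was lower with DMXAA (-0.24 ± 0.07 and -0.26 ± 0.09), and Gabpa did not pass. Beyond the Tmem176 pair, 15 and 14 of 18 neighbours did not pass with DMXAA in b1 and b2. The others were 2 higher and 1 lower in b1, and 2 higher and 2 lower in b2. Atp6v0e2 was lower in both batches, like the pair (-0.38 ± 0.10 and -0.80 ± 0.12). Gpnmb, a lysosomal glycoprotein gene of macrophages that starts 195050 bases from Tmem176b, went the other way from the pair. It was higher by 3.09 ± 0.20 in b1 (1.67 to 14.3 CPM, edgeR, adjusted p = 1.17e-16). In b2 it was higher by 3.36 ± 0.23 (2.67 to 27.4 CPM, edgeR, adjusted p = 7.78e-16). Gpnmb stood at 29.2 CPM in the treated SGK3 knockout and at 5.83 in the treated SGK1 knockout. On chromosome 16, which holds 3 members, 5.88% of tested genes were lower in b1 and 13.2% in b2 with DMXAA, inside the 3.65% to 7.82% and 8.02% to 14.5% of the other chromosomes. At rest 4.46% were lower, inside 1.74% to 5.14%. Among genes with a mean of at least 1 CPM, the 6.89% lower at rest was above the 1.99% to 6.74% of every other chromosome. The 2.48% higher was below their 2.56% to 6.49%. All these shares count the members themselves. Bdh1 and Btg3, which lie on chromosome 16, were chosen for low levels in the double knockout, so nothing is read from these differences.

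The coding genes most like each member, the 7 members themselves left out, were taken as the 2 with the highest and the 1 with the lowest Pearson r over 46 libraries, among 10261 with a mean of at least 1 CPM. Morc4, an X-linked gene of the MORC family of chromatin ATPases, was most like both Crlf2 (r = 0.968) and Bdh1 (r = 0.930). It had 4.96 and 3.32 CPM in treated control cells of b1 and b2, 4.16 in the SGK3 knockout, 0.558 in the SGK1 knockout, and 0.0193 and 0 in the double knockout. Cibar1 came next for both (r = 0.922 and 0.921). Slc9b2, a sodium/proton exchanger gene, had the lowest r to Crlf2, Bdh1, Tmem176a and Tmem176b, from -0.884 to -0.938. It was at 7.35 and 12.1 CPM in the treated double knockout of b1 and b2 and at most 0.129 in every group of another line. Rnase4, a secreted ribonuclease gene, and C1ra, a complement protease gene, were most like Btg3 (r = 0.954 and 0.932), and Sh3kbp1 least like it (r = -0.880). For Trp53i11, Ing1 (r = 0.912) and Gpr179 (r = 0.909) were highest and Pltp lowest (r = -0.869). Gpr179 was also highest for Tmem176a (r = 0.934) and Tmem176b (r = 0.946), followed by Rnase4 (r = 0.911) and Ing1 (r = 0.934).

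Jam2 stood apart here too. Nfia, a nuclear factor I gene, and Sntb2, a syntrophin gene, were most like it (r = 0.933 and 0.912), with Nfia at 0.221 CPM in the treated SGK3 knockout against 2.76 in control cells and 2.00 in the double knockout. Ptprk, a receptor tyrosine phosphatase gene, was least like it (r = -0.970): it had 42.4 CPM with DMXAA and 41.8 at rest in the SGK3 knockout and at most 0.0573 in every group of another line. Spearman's rho was 0.567 to 0.898 for the genes named as most like a member and -0.909 to -0.412 for those named as least like one. Ranked by rho among the 10261 genes, the former ran from 1 (Rnase4 for Tmem176a) to 412 (Ing1 for Trp53i11). The latter ran from 9272 (Pltp for Trp53i11) to 10261 (Ptprk for Jam2). The picks by Pearson r are thus not all the most or least alike by rank. These coefficients describe shared line differences over libraries that are not independent, and no function or control is inferred from them.

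**Figure D4:**
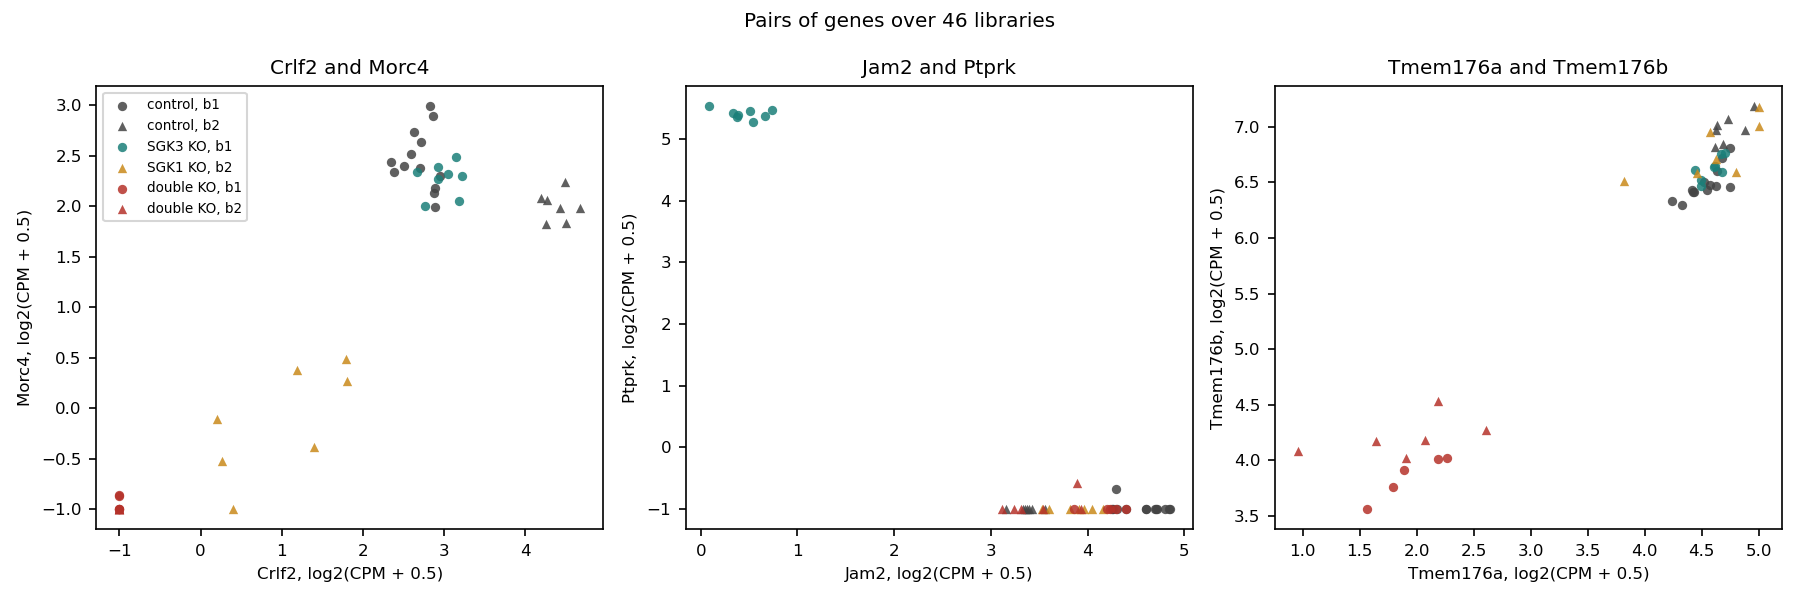
Log2(CPM + 0.5) of Crlf2 against Morc4, Jam2 against Ptprk and Tmem176a against Tmem176b in the 46 libraries of b1 (circles) and b2 (triangles), coloured by line. In the left panel the double knockout lies at the lower left, with r = 0.968 after centring on the batch mean. In the middle panel the SGK3 knockout alone is low for Jam2 and high for Ptprk (r = -0.970), and in the right panel the double knockout is low for both genes (r = 0.981).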

How the data were processed

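RNA was sequenced from poly-A libraries of RAW264.7 lines. The authors deposited estimated counts per gene and TPM (a unit scaled for transcript length and depth); STAR 2.7.9a, StringTie 2.2.0 and GRCm39 are named in the submitters' processing notes, and the annotation, GENCODE M27, in the name of the deposited table. The order and settings of these steps are not given in the sources used here. The deposited counts are whole numbers with an excess at 4, so 1 read pair was taken as 4 counts and the floor for a library as 3 pairs, or 12 counts.

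Counts were tested with edgeR 4.0.16 in R 4.3.3 (TMM scaling, filterByExpr, robust quasi-likelihood fit, 1 coefficient per group) over 46 libraries of b1 and b2, with Benjamini-Hochberg adjustment over 18315 genes and a threshold of 0.05. Batch b3 and 1 library with contradictory labels were left out of the tests. DESeq2 1.42.0, limma 3.58.1 on log2 of the deposited TPM plus 0.5 or 0.1, other scaling, filters and sample sets were alternatives; fits that leave out 1 library used a dispersion grid of 11 points instead of 21, a choice made for run time after the results with 21 had been seen. On simulated data with 17667 genes, edgeR recovered 53% of changes of 0.5 (log2) and 88% of changes of 1 for the DMXAA response of control cells in b1, and 43% and 86% for that of the double knockout in b2. False calls numbered 9 and 2. The simulated spread followed the trend over all genes, and groups of a batch differed only by the added changes. Line differences, groups without counts and the length trend are thus not covered by these rates. Levels are CPM on TMM-scaled library sizes. Depth is given with the results, and floors cover counting error only.

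Members and gene lists were chosen with earlier results of these data known. Il7r, Tslp, Ms4a6c, Xxylt1, Ppp1r2, Gm49767 and Atp6v0e2 were named after their values were seen. Other genes named from a list passed in both batches with the same sign, at most 4 per list. A gene that this rule also named is not reported here. Neighbours are measured genes within 0.5 Mb, and the genes most like a member, other members left out, were the 2 highest and the 1 lowest by Pearson r. Promoter sequences are from RefSeq on GRCm38.p6, which differs from the build of the tables.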

Additional observations from a re-analysis of the deposited data

How the results depend on the processing

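No direction of a called value reversed under any alternative. The rise of Trp53i11 in the double knockout of b2 passed under all of its alternatives, with log2 values from 1.15 to 1.41, and that of Jam2 and Tmem176a under all except a fit of the groups compared alone (adjusted p of 0.102 and 0.264). The inhibitor's effect on Jam2 passed under all of its alternatives (0.43 to 0.51), and that on Trp53i11 was lost with limma on log2(TPM + 0.1) and on unfiltered TPM (adjusted p of 0.0621 and 0.0508). Jam2 in control cells of b1 was lost with DESeq2-type size factors (adjusted p = 0.0506) and with no filter (0.06). Jam2 in the SGK1 knockout was lost in the 3 limma fits (0.0549, 0.096 and 0.061). Bdh1 in that line passed as a fall with DMXAA in these 3 fits, with log2 changes of -0.72, -0.98 and -0.72 (limma, adjusted p of 0.00355, 0.0198 and 0.00488). Tmem176b in the double knockout passed in the same 3 fits (0.0266, 0.0254 and 0.0468), and also once the 6 length-trend libraries were left out (0.0392). The cause of these changes was not tested. With all libraries, the coarser dispersion grid of 11 points, chosen after the data were seen and used wherever 1 library is left out, changed no call of a member; without treated replicate 2, Jam2 in control cells of b1 had an edgeR adjusted p of 0.04956 with 11 points and 0.05009 with 21.

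For members called, leaving out 1 library gave 0 to 3 of the main 3 in control cells of b1, 0 to 3 of 2 in the SGK1 knockout, and 0 to 2 of 0 for the SGK1 knockout minus control response. The count was 5 in control cells of b1 with b1 libraries without the block and with the groups compared alone. It was 1 of 0 in the SGK3 knockout under each of the 3 TPM fits and 2 with the groups alone. It was 0 in the SGK1 knockout without the 6 libraries of steep length trend and with the groups alone, 1 of 4 (the 4 includes Bdh1 near its floor, from which no call is drawn) in the double knockout with the groups alone, 1 of 2 for the inhibitor on log2(TPM + 0.1) and on unfiltered TPM, 1 for the SGK1 knockout minus control with DESeq2, and 1 for control b2 minus b1 with the groups alone.

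For genes called, leaving out 1 library gave 2788 to 5401 in the SGK1 knockout (main 4410), 244 to 1505 for the SGK1 knockout minus control (519) and 20 to 42 for the SGK3 knockout minus control (35). Without the 6 libraries of steep length trend the counts were 2357 in control cells of b2 (1428), 1977 in the SGK1 knockout, 2636 for the inhibitor (1558), 112 for SGK3 minus control, 225 for SGK1 minus control and 1217 for control b2 minus b1 (588). DESeq2 gave 91 for SGK3 minus control and 935 for SGK1 minus control, and no filter gave 330 for the latter. Filtered and unfiltered log2(TPM + 0.5) gave 54 and 69 for SGK3 minus control. With the groups alone the counts were 5339 in the SGK3 knockout (3029), 763 in the SGK1 knockout, 475 in the double knockout (2555), 2868 for the inhibitor, 170 for SGK3 minus control and 80 for SGK1 minus control.

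The replicate numbers of b1 did not pair the libraries: 0 of 57 same-numbered pairs correlated above 0.1 (-0.102 to 0.0824), and the letters of b2 are shared by no 2 groups. The replicate block on b1 libraries called 4797 genes in the SGK3 knockout, 3524 for the inhibitor and 180 for SGK3 minus control. The same libraries without the block, a fit chosen after seeing the data, called 5100, 3520 and 176, and 5989 in control cells of b1 (3870). Fitted differences of Bdh1 and Btg3 between lines shrank most on the TPM scale with a pseudocount, and those near the floor are not printed. In b3 the double knockout differed from the SGK1 knockout by -3.26 (log2) for Trp53i11, against -2.14 in b2, and by 0.15 for Jam2, against -0.23.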

Other observations

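The control library of b3 whose title gives no treatment while its treatment field gives DMXAA was put in no group. It held 24.4 CPM of Crlf2, 8.21 of Bdh1, 5.99 of Btg3, 64.2 of Trp53i11, 11.4 of Jam2, 23.2 of Tmem176a and 129 of Tmem176b. The rerun of the treated SGK1 knockout held 3.01 CPM of Crlf2, 0.616 of Bdh1, 3.12 of Btg3, 45.9 of Trp53i11, 8.15 of Jam2, 23.8 of Tmem176a and 129 of Tmem176b. For Jam2 and Trp53i11 this library lay below every SGK1 knockout library of b2.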
